A study of Mus musculus with 9 samples.

Results

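Tumours grown from MC38 cells carrying the Gad1 shRNA B (shB) were set against control tumours carrying the vector labelled NTC. These are 6 of the 9 libraries of the series, 3 per group, chosen by their titles, and a gene was tested when its value reached 20 normalized reads in at least 3 of the 6. That left 14177 of 17134 listed genes, and 2957 were not tested. MC38 is a colon adenocarcinoma line from C57BL/6 mice. Its cells were infected with lentivirus carrying the shB or NTC construct, selected with puromycin and injected into C57BL/6 mice, so both groups share the vector, the drug selection and the implantation. Tumours were taken on day 20. The knockdown was made in a selected cell population, and the host mice kept their own Gad1. RNA came from whole tumours, in which cancer cells are mixed with host immune, stromal and vascular cells, so more cells of a type and more RNA per cell cannot be told apart. Whether the 3 tumours of a group came from different mice was not given in the sources used here, and p-values measure only the spread between these libraries.

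Gad1 encodes glutamate decarboxylase, which makes gamma-aminobutyric acid (GABA) from glutamate. GABA is best known as an inhibitory transmitter of the brain. It is broken down by the transaminase Abat and the succinate semialdehyde dehydrogenase Aldh5a1, and it acts through ion channel (GABA-A) and G protein-coupled (GABA-B) receptors. MC38 tumours are widely used to study anti-tumour immunity, where cytotoxic T cells act through interferon gamma, and interferons switch on antigen presentation and antiviral genes in tumour and host cells.

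The deposited value of a gene is its read count divided by 1 factor per library, called normalized reads below. Values are not divided by transcript length, so levels are compared between libraries and not between genes. Recovered depths were 18624816 to 21968880 reads in shB libraries and 18373748 to 21071801 in NTC libraries. The first component took 73.5% of the variance and separated the groups, and it also set NTC replicate 1 apart. That library lay at -100.3, the other NTC libraries at -44.1 and -42.6 and the shB libraries at 58.6 to 68.7. The second component held 14.2% and set shB replicate 1 apart from the other 2 shB libraries. In shB replicate 1 the cytosolic ribosomal protein genes took 5.20% of all values, against 8.37% to 9.55% in the other 5 libraries, and skeletal muscle genes summed to 11067 normalized reads, against 142 and 1897 in the other shB libraries and 107 to 344 in NTC libraries. NTC replicate 1 had the highest red blood cell sum, 61042 normalized reads, against 176 to 1455 in shB libraries and 3402 and 6372 in the other NTC libraries. Results that lean on either library are given with and without it.

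Of the 14177 genes tested, 3153 changed at a limma adjusted p under 0.05, which is 22.2%. Of these, 2024 rose (14.3%) and 1129 fell (7.96%). The rises were the larger changes. The median rise was 3.45-fold and 888 of the rising genes changed at least 4-fold, whereas the median fall was 1.82-fold and 114 falling genes changed at least 4-fold. In 3097 genes (21.8%) every shB library lay above every NTC library, and in 2951 (20.8%) every shB library lay below. The median log2 change over all genes tested was -0.05. Among the tested genes 340 passed the filter through the 3 shB libraries alone and 98 through the 3 NTC libraries alone. Such genes had to differ, so counts over tested members of a list are descriptions. They made up 3 of 25 tested T cell genes, 4 of 12 cytotoxic, 3 of 16 inhibitory receptor, 3 of 14 class II, 3 of 15 dendritic cell and 4 of 23 chemokine genes, and none of the 35 type I interferon genes. Where such a gene is named, it is said to have passed through 1 group, its p comes from the fit with no filter over all 17134 genes, and its lack of overlap is not a result. Genes ranked by size of change were picked for groups that do not overlap, so for them too lack of overlap is not a result. Fold changes are differences of mean log2(value + 0.5), and for genes with a few reads in a group they depend on the added 0.5.

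**Figure D1:**
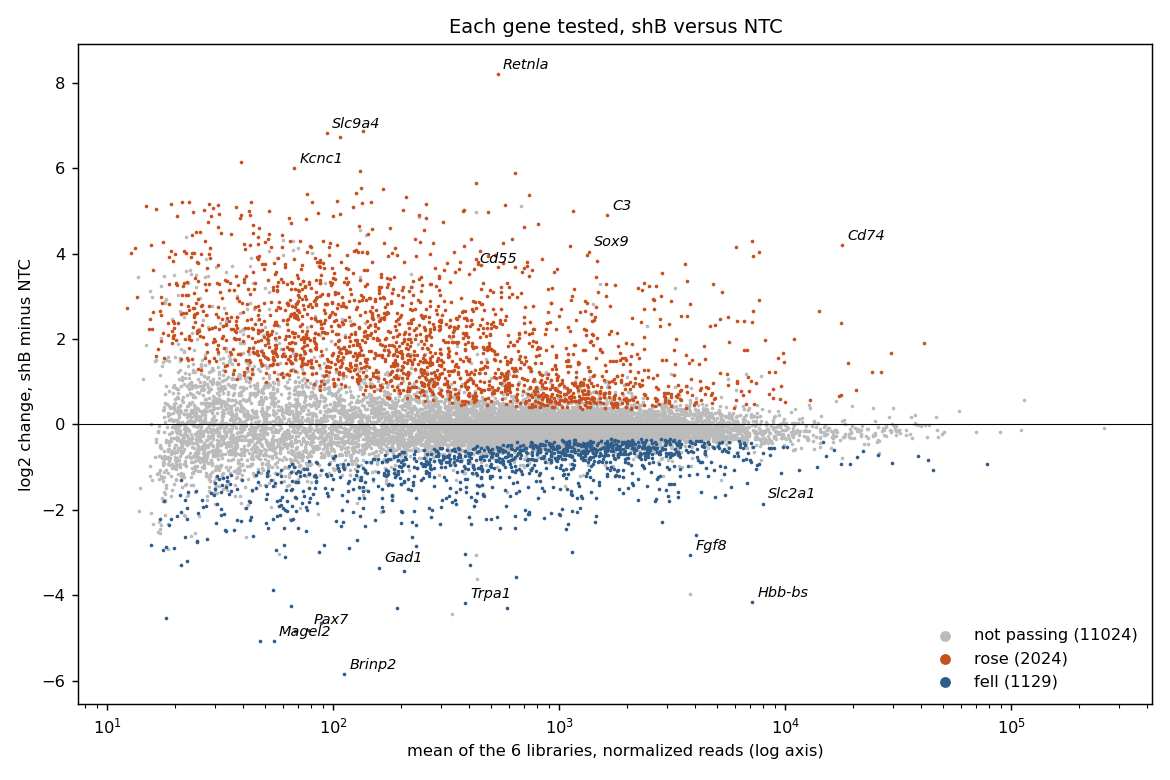
Log2 change, shB minus NTC, of each of the 14177 genes tested (vertical axis) against its mean over the 6 libraries in normalized reads (horizontal log axis). Orange points rose (2024), blue points fell (1129) and grey points did not pass; the rises reach 8.20 at Retnla and the falls -5.84 at Brinp2.

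The numbers of calls depended on single libraries. Without shB replicate 1, 3277 genes rose and 3163 fell, and 1981 and 1126 of the genes called in those directions with all 6 libraries were among them. Without shB replicate 2 the counts were 1171 and 475, and without shB replicate 3 they were 1283 and 594. Leaving out NTC replicate 1, 2 or 3 gave 1565, 1511 and 1552 rising genes and 547, 481 and 512 falling genes. No gene called with all 6 libraries was called in the opposite direction in any of these. Of the 3153 calls, 1475 held in all 6 leave-one-out fits.

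**Figure D2:**
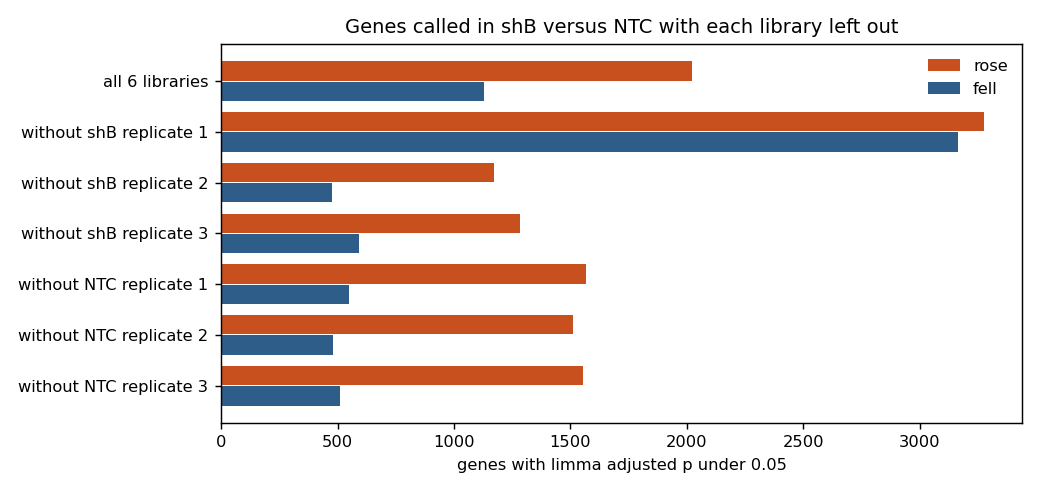
Number of genes with a limma adjusted p under 0.05 (horizontal axis) with all 6 libraries and with each library left out in turn (rows); orange bars count rising genes and blue bars falling genes. Without shB replicate 1 the falling genes number 3163, against 1129 with all 6 libraries.

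The shRNA target was low in every shB tumour. Gad1 had 21.8, 42.2 and 23.6 normalized reads in shB libraries, against 281, 265 and 326 in NTC libraries. The groups were far apart, and the highest shB library lay below the lowest NTC library. The shB mean was 29.2 ± 11.3 and the NTC mean 291 ± 31.8 (SD, n = 3 each), so that 10.1% of the NTC level was left. The log2 change was -3.35 (SE 0.31, limma adjusted p 0.00198), a 10.2-fold fall. An exact two-sided permutation test gave p = 0.1, the smallest that 3 against 3 libraries allow.

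Of the GABA breakdown genes, Abat RNA showed the larger fall. Abat, the GABA transaminase gene, had 13.1, 12.8 and 11.3 normalized reads in shB libraries and 128, 99.4 and 102 in NTC libraries, an 8.54-fold fall. This gene passed the filter through NTC alone (limma adjusted p 0.00198 with no filter). Of the 29 GABA genes listed, 11 had values and 8 were tested. Gad1, Abat and Aldh5a1 fell and Slc6a13, a GABA transporter, rose. The last 2 changes were small, a 1.31-fold fall and a 1.86-fold rise, and were lost without any one of 5 libraries, every one except shB replicate 1 (adjusted p up to 0.152 and 0.0887). Gad2, the second glutamate decarboxylase gene, had 115, 435 and 382 normalized reads in shB libraries and 134, 172 and 124 in NTC libraries, and the groups overlapped (log2 change 0.91, adjusted p 0.226).

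**Figure D3:**
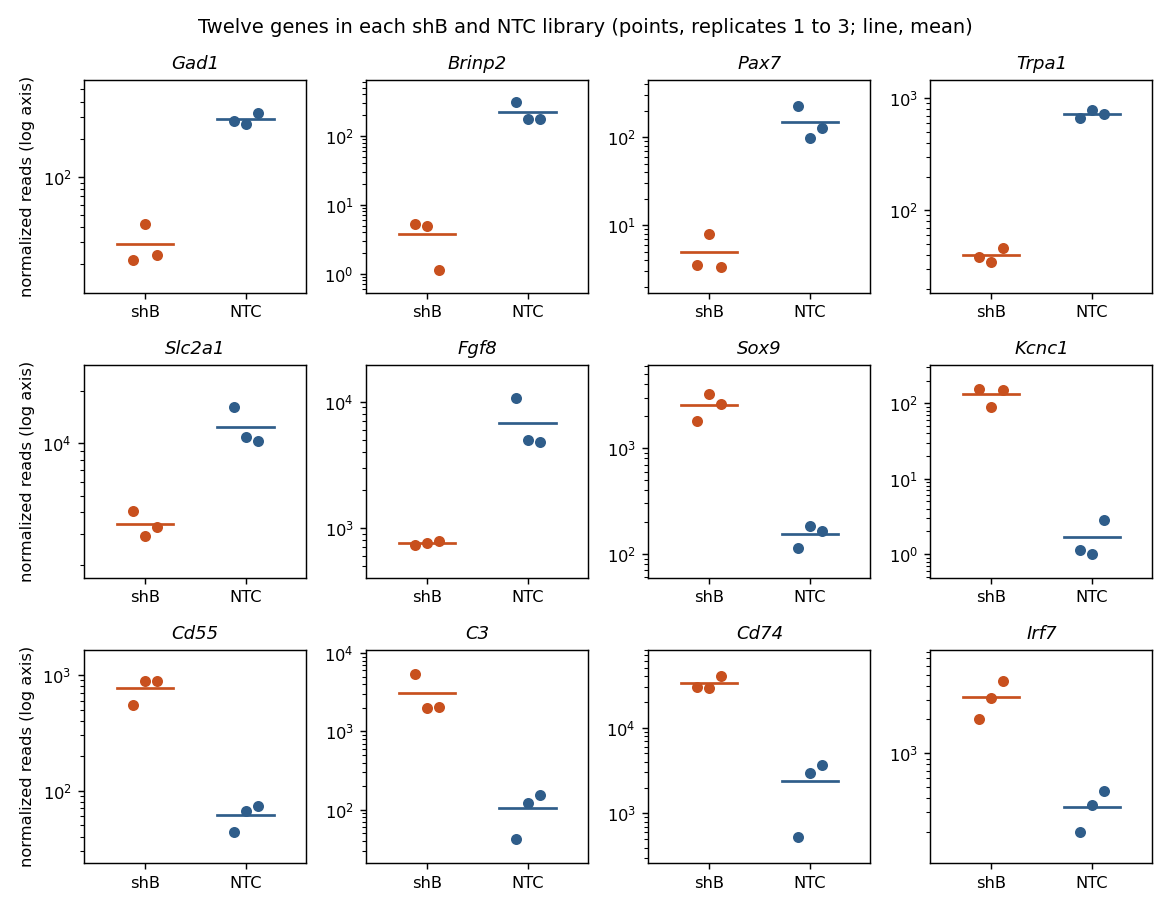
Normalized reads (log axis) of 12 genes in each shB (orange, left) and NTC (blue, right) library; points are replicates 1 to 3 from left to right and the line is the group mean. In each panel the 3 shB values lie wholly below or wholly above the 3 NTC values, as for Trpa1, at 34.4 to 46.2 in shB libraries and 667 to 784 in NTC libraries. This is not a result for genes ranked by size of change, such as Trpa1, which were picked for groups that do not overlap. It also had to hold for Brinp2, Pax7 and Kcnc1, which passed the filter through 1 group alone.

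Genes induced by type I interferon, the antiviral interferon made by many cell types, were high in shB tumours. Of 36 listed, 35 were tested, 33 rose and none fell, with Eif2ak2 and Adar, both sensors or editors of double-stranded RNA, not passing (log2 changes 0.80 and 0.53). The median log2 change was 2.66, against -0.05 over all genes tested. In all 35 tested genes every shB library lay above every NTC library, against 21.8% of all genes tested. Of the 33 calls, 28 held with each library left out in turn. They summed to 0.283% to 0.353% of all values in shB libraries and 0.0330% to 0.0860% in NTC libraries.

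Irf7, a transcription factor that amplifies interferon production, had 2009, 3132 and 4424 normalized reads in shB libraries and 199, 345 and 461 in NTC libraries, and rose 9.56-fold (limma adjusted p 0.00272). Trim30a, an interferon-induced regulator of inflammatory signalling, had 1228, 1110 and 1405 in shB libraries and 52.9, 142 and 151 in NTC libraries, and rose 11.9-fold (adjusted p 0.00252). Both genes were lowest in NTC replicate 1. Oas3, an oligoadenylate synthetase that activates RNase L, had 784, 648 and 714 in shB libraries and 71, 132 and 152 in NTC libraries. Rsad2, the antiviral enzyme viperin, had 695, 1025 and 1127 in shB libraries and 221, 106 and 125 in NTC libraries. Their rises were 6.31-fold and 6.47-fold (adjusted p 0.00253 and 0.00282), and for Rsad2 NTC replicate 1 was the highest of the NTC libraries. Ifit3, a protein that binds viral RNA complexes, reached 846, 1420 and 2371 in shB libraries, against 20.3, 80.3 and 96 in NTC libraries. Its log2 change was 4.70 (SE 0.62, adjusted p 0.00358), and 4.01 without NTC replicate 1.

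Interferon-stimulated genes are switched on through the interferon-stimulated response element, searched here as the letters GAAA, any 2 bases and GAAA again, on both strands in the 250 bases before each gene's start, from RefSeq sequence on GRCm38.p6. It occurred in 2.98% of all such windows. Of the tested members, 25 of 35 type I and 11 of 19 guanylate-binding and immunity-related GTPase genes matched the RefSeq table, and no share is given per list. The windows of Trim30a (chr7:104465194-104465443, minus strand), Oas3 (chr5:120777660-120777909, minus strand), Rsad2 (chr12:26456453-26456702, minus strand) and Ifit3 (chr19:34583279-34583528, plus strand) are shown because these rising genes hold the element, which is in capitals, 5′ to 3′ on the gene's own strand. The match lies nearest the start in Trim30a, 36 bases before it, then at 75 bases in Oas3, 120 in Rsad2 and 122 in Ifit3, which has 2 matches. A match to these letters is not a measured binding site.
Trim30a: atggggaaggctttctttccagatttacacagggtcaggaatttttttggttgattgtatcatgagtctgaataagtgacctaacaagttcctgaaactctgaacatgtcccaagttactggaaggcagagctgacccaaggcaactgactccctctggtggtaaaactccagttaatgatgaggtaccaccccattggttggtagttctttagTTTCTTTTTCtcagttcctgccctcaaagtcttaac
Oas3: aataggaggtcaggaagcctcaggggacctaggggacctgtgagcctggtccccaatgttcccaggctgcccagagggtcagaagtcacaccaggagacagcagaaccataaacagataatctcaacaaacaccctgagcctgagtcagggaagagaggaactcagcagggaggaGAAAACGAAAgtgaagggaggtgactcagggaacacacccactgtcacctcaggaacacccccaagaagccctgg
Rsad2: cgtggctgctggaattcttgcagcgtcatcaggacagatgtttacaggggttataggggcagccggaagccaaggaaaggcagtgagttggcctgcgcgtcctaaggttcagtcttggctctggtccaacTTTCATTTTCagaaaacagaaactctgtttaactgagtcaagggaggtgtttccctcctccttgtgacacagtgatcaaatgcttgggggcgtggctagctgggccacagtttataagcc
Ifit3: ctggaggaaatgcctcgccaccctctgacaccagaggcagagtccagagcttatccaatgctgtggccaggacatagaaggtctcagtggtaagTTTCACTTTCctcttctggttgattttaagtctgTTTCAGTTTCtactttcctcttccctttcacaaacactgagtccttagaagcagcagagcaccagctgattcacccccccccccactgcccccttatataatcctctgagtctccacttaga

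Antigen presentation genes were high in shB tumours. MHC class II molecules show peptides to CD4 T cells, and 13 of 14 tested class II genes rose. Cd74, the invariant chain that guides them, had 30134, 29239 and 40401 normalized reads in shB libraries and 526, 2948 and 3686 in NTC libraries. H2-Eb1, a class II beta chain, had 10893, 11902 and 17234 in shB libraries and 169, 1148 and 1539 in NTC libraries. In both genes NTC replicate 1 was the lowest library. Cd74 rose 18.4-fold (limma adjusted p 0.00607) and 9.98-fold without NTC replicate 1. H2-Eb1 rose 19.5-fold (adjusted p 0.00804), 9.83-fold without NTC replicate 1 and 29.6-fold without NTC replicate 3. The class II list summed to 69123 to 99108 normalized reads in shB libraries and 3081 to 11030 in NTC libraries. Ciita, the master activator of class II genes, read 1288, 482 and 620 in shB libraries and 12.4, 75.3 and 148 in NTC libraries and rose 13.9-fold (adjusted p 0.0183), 6.87-fold without NTC replicate 1 and 23.3-fold without NTC replicate 3.

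Of 17 tested genes of MHC class I presentation, which shows peptides to CD8 T cells, 13 rose and none fell. Tapbp, which loads peptides, had 6861, 6905 and 9086 normalized reads in shB libraries and 887, 1708 and 2370 in NTC libraries, a 4.93-fold rise (limma adjusted p 0.00478). B2m, the shared light chain, had 21155, 29971 and 36407 in shB libraries and 2695, 7748 and 7967 in NTC libraries (5.18-fold, adjusted p 0.00857). The class I heavy chain genes H2-K1 and H2-D1 rose 3.76-fold and 3.17-fold, and Nlrc5, which activates class I genes, 8.88-fold. H2-K1 missed the threshold without shB replicate 2 or 3 (adjusted p 0.0607 and 0.0533), H2-D1 without shB replicate 2 (0.0552), and Nlrc5 without NTC replicate 2 or any one shB library (up to 0.0928). Nlrc5 rose 4.04-fold without NTC replicate 1 and 15.3-fold without NTC replicate 3. The count of rising class I genes was 5 without shB replicate 2 and 6 without shB replicate 3. The chaperone genes Canx and Calr, which help fold many proteins, had log2 changes of -0.06 and 0.02. All 11 tested non-classical class I genes rose, 7 without shB replicate 2 or 3. H2-T23, which presents to inhibitory NK receptors, had 3123, 3823 and 5822 in shB libraries and 181, 530 and 735 in NTC libraries (9.93-fold, 6.58-fold without NTC replicate 1). Reads of the class I genes can be shared between near-identical copies, so single members are uncertain.

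Other interferon-induced genes were high as well, and which interferon induced them was not tested. Ifng, the gene of interferon gamma, had 34.8, 15.7 and 38.3 normalized reads in shB libraries and 0, 2.01 and 16.3 in NTC libraries. It was under the filter and the groups overlapped. Of 19 guanylate-binding and immunity-related GTPase genes, which attack vacuoles of intracellular microbes, 16 rose. The count was 8 without shB replicate 2, 7 without shB replicate 3 and 9 without NTC replicate 2. Irgm2 had 11406, 9254 and 11524 normalized reads in shB libraries and 866, 2365 and 3882 in NTC libraries, a 5.35-fold rise (limma adjusted p 0.012) that was 3.52-fold without NTC replicate 1. Of 27 interferon receptor, STAT, IRF and SOCS genes, 17 rose, 10 without shB replicate 2 or 3. Socs1, the feedback inhibitor of this signalling, rose 3.52-fold and Ifngr1, a receptor chain, 1.85-fold (adjusted p 0.00448 and 0.00368). Cd274, which encodes the checkpoint ligand PD-L1, rose 6.38-fold (adjusted p 0.0245) and missed the threshold without shB replicate 2 or 3 or NTC replicate 2 (0.0502 to 0.0764), with folds of 3.72 without NTC replicate 1 and 9.58 without NTC replicate 3.

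**Figure D4:**
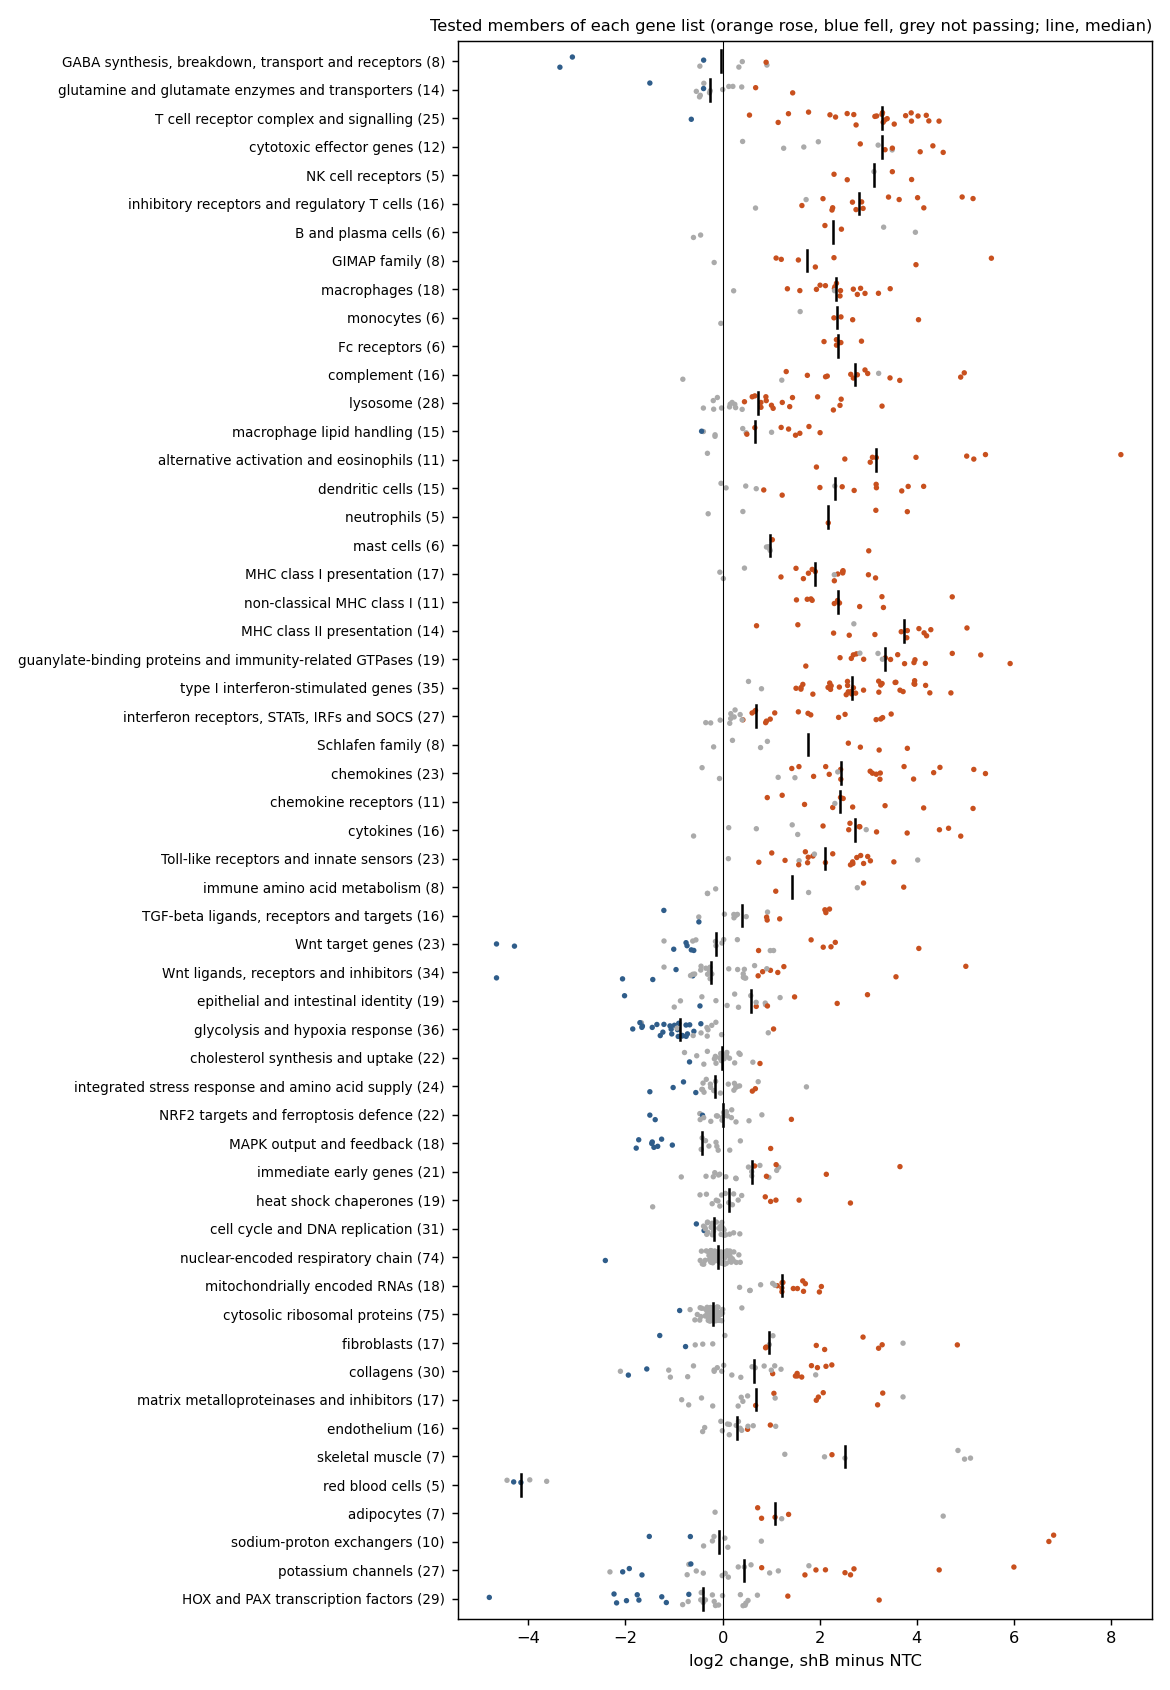
Log2 change, shB minus NTC, of the tested members of each gene list with at least 5 tested members (rows, number tested in brackets); orange members rose, blue members fell, grey members did not pass and the black line is the list median. Immune lists lie to the right, with the class II median at 3.74, and the glycolysis and hypoxia list to the left, with a median of -0.87.

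T cell genes were high in shB tumours. Of 25 tested genes of the T cell receptor complex and its signalling, 24 rose and Tcf7 fell. Cd3g, a chain of the receptor complex, had 176, 194 and 243 normalized reads in shB libraries and 9.01, 17.1 and 52.8 in NTC libraries, a 9.80-fold rise (limma adjusted p 0.00851) that was 15.7-fold without NTC replicate 3. Cd8b1, which encodes the CD8 beta chain, had 116, 160 and 143 in shB libraries and 11.3, 25.1 and 28.8 in NTC libraries (6.72-fold, adjusted p 0.00487). Cd4, the co-receptor of helper T cells that macrophages also carry in some tissues, had 234, 125 and 116 in shB libraries and 5.63, 16.1 and 28.8 in NTC libraries (10.5-fold, adjusted p 0.00811, and 6.84-fold without NTC replicate 1). No shB library fell within the NTC range for these genes. Lat, the adaptor that links the receptor to its signalling, rose 5.92-fold, Il7r, the interleukin 7 receptor, 6.51-fold and the adhesion receptor Cd2 9.02-fold. Cd3e, Cd3d and Cd8a rose 19.0-fold, 14.8-fold and 9.73-fold, and all 3 missed the threshold without shB replicate 2, shB replicate 3 or NTC replicate 2 (adjusted p 0.0524 to 0.0769). Their folds were 8.00, 7.16 and 4.71 without NTC replicate 1 and 38.6, 27.8 and 16.6 without NTC replicate 3. The number of rising T cell genes was 15 without shB replicate 2 or 3.

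Tcf7, a transcription factor of the Wnt pathway that is also used by T cells, was the only T cell gene of the list to fall with all 6 libraries. It had 3191, 2262 and 2289 normalized reads in shB libraries and 4162, 3790 and 4003 in NTC libraries, and its 1.56-fold fall (limma adjusted p 0.0235) was lost without any library except shB replicate 1 (0.0664 to 0.0917).

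Effector genes of cytotoxic cells rose in part. Of 12 tested, 6 rose, 3 without shB replicate 2 or 3. Gzma, a granule protease, had 162, 545 and 735 normalized reads in shB libraries and 5.63, 20.1 and 40.3 in NTC libraries. Its 23.3-fold rise (limma adjusted p 0.00791) was 36.7-fold without shB replicate 1, 13.9-fold without NTC replicate 1 and 35.8-fold without NTC replicate 3. Cxcr6, a homing receptor of effector T cells, rose 10.2-fold (adjusted p 0.00328). Ctsw, a protease of cytotoxic cells, passed the filter through shB alone and rose 11.3-fold (adjusted p 0.00243 with no filter). Gzmb and Prf1, the granule protease and pore protein most closely tied to killing, did not pass. Gzmb had 85.3, 57 and 102 in shB libraries and 5.63, 20.1 and 66.2 in NTC libraries, and Prf1 158, 45.2 and 87.8 in shB libraries and 9.01, 30.1 and 67.2 in NTC libraries. For both genes NTC replicate 3 overlapped the shB range (adjusted p 0.123 and 0.161).

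NK cell receptor genes had little signal. Of 16 with values, 11 were not tested and 4 of the other 5 rose, 2 without shB replicate 2, shB replicate 3 or NTC replicate 2. Among these 5, 2 passed the filter through shB alone. The defining marker Ncr1 read 13.1, 13.8 and 21.4 normalized reads in shB libraries and 2.25, 2.01 and 3.84 in NTC libraries, under the filter. The list of inhibitory receptors and regulatory T cell genes had 16 tested members, and 14 rose. Lag3, an inhibitory receptor of activated T cells, had 328, 289 and 311 in shB libraries and 64.2, 63.2 and 96.9 in NTC libraries (4.19-fold, limma adjusted p 0.00272). Ctla4, a checkpoint receptor, had 75.7, 118 and 102 in shB libraries and 1.13, 6.02 and 15.4 in NTC libraries (17.7-fold). It passed the filter through shB alone (adjusted p 0.00995 with no filter), with folds of 9.60 without NTC replicate 1 and 30.0 without NTC replicate 3. The groups did not overlap for Lag3. Foxp3, which defines regulatory T cells, had 84.5, 33.4 and 38.3 in shB libraries and 10.1, 11 and 24.9 in NTC libraries and did not pass (log2 change 1.72, adjusted p 0.0556). Of 6 tested B and plasma cell genes 2 rose, 1 without shB replicate 2, shB replicate 3 or NTC replicate 2, among them Cd72, a co-receptor of B cells (5.45-fold, adjusted p 0.033). That call was lost without the same libraries (0.0696 to 0.0975), and the fold was 3.25 without NTC replicate 1 and 8.34 without NTC replicate 3. Cd22, another B cell co-receptor, had 180, 40.3 and 101 in shB libraries and 0, 16.1 and 23 in NTC libraries and did not pass (adjusted p 0.087). Jchain, which joins secreted antibodies, passed the filter through shB alone and was not called either (adjusted p 0.0854 with no filter). The markers Ms4a1 and Cd79a were not higher in shB libraries, with Ms4a1 at 0 to 3.38 in shB libraries and 2.25 to 5.02 in NTC libraries and Cd79a at 16.7 to 21.8 in shB libraries and 22.1 to 36.5 in NTC libraries.

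Macrophage genes were high in shB tumours. Of 18 tested, 16 rose and none fell. Csf1r, the receptor that macrophages need to survive, had 2224, 1139 and 1428 normalized reads in shB libraries and 101, 319 and 301 in NTC libraries, a 7.17-fold rise (limma adjusted p 0.00637). Lyz2, lysozyme, had 11847, 8782 and 10226 in shB libraries and 1248, 2486 and 2243 in NTC libraries (5.35-fold, adjusted p 0.00252). Apoe, a lipid carrier, had 16881, 14025 and 21954 in shB libraries and 3882, 4904 and 4200 in NTC libraries (4.02-fold, adjusted p 0.00198). The lowest shB value was above the highest NTC value for each. All 6 Fc receptor genes rose, with Fcgr3 at 5.08-fold and Fcgrt, which recycles antibodies, at 4.25-fold. Of 28 lysosomal genes 17 rose, led by Psap, Ctss and Ctsh, with Ctss, the protease that trims the invariant chain, at 9.74-fold (adjusted p 0.00286). Abca1 and Abcg1, which export cholesterol, rose 3.43-fold and 2.83-fold, within a lipid handling list of which 8 of 15 rose and 1, the ubiquitin ligase gene Mylip, fell 1.35-fold. No member of that list fell without any one library other than shB replicate 1.

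Complement genes rose in 13 of 16 tested cases. C3, the central component, had 5369, 2003 and 2038 normalized reads in shB libraries and 42.8, 121 and 154 in NTC libraries, a 29.9-fold rise (limma adjusted p 0.00272). C1s1, a protease of the classical pathway, had 693, 351 and 302 in shB libraries and 23.7, 53.2 and 43.2 in NTC libraries (10.9-fold, adjusted p 0.00306). For both, shB replicate 1 was the highest library. Cd55, which protects cells by breaking up complement convertases, had 552, 886 and 887 in shB libraries and 43.9, 66.2 and 73.9 in NTC libraries (12.5-fold, adjusted p 0.00177), here with shB replicate 1 the lowest of its group. C1qa, C1qb and C1qc, which start the classical pathway and are made by macrophages, rose by 2.93, 2.69 and 2.78 on the log2 scale. The membrane inhibitor gene Cd59a did not pass (log2 change -0.82).

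Of 15 tested dendritic cell genes 10 rose. The count was 5 without shB replicate 2 or 3 and 6 without NTC replicate 1 or 2. Itgax, an integrin of dendritic cells and macrophages, had 2125, 1237 and 1398 normalized reads in shB libraries and 77.7, 220 and 294 in NTC libraries (8.99-fold, limma adjusted p 0.0052). Clec9a, which marks cross-presenting dendritic cells, had 146, 104 and 86.7 in shB libraries and 4.51, 5.02 and 22.1 in NTC libraries, a 12.9-fold rise that was 21.0-fold without NTC replicate 3. Both groups were separated in each gene. Of 5 tested neutrophil genes 3 rose, 2 without shB replicate 2 or 3. Csf3r, the growth factor receptor of neutrophils, rose 4.52-fold (adjusted p 0.00452). Hdc, which makes histamine, rose 8.91-fold (adjusted p 0.00801), and 13.6-fold without shB replicate 1. Retnlg, a secreted neutrophil product, had 40.9, 284 and 157 in shB libraries and 3.38, 14.1 and 11.5 in NTC libraries. Retnlg passed the filter through shB alone (adjusted p 0.0143 with no filter), and its 14.0-fold rise was 24.1-fold without shB replicate 1, 9.28-fold without NTC replicate 1 and lost as a call without shB replicate 2 or 3 (0.0583 and 0.0544), with 9.18-fold without shB replicate 2. The granule gene S100a9 had 1.74, 36.3 and 36 in shB libraries and 22.5, 26.1 and 8.64 in NTC libraries and S100a8 was not tested. Of 11 tested genes of alternative activation and eosinophils, 10 rose, and 5 of the 11 passed the filter through shB alone. Retnla, a product of alternatively activated macrophages, had 272, 1583 and 1336 in shB libraries and 0, 5.02 and 7.68 in NTC libraries. It passed the filter through shB alone (adjusted p 0.00368 with no filter). Its log2 change of 8.20 (SE 1.13) was 9.01 without shB replicate 1. Leaving out NTC replicate 1 gave 6.95 and leaving out NTC replicate 3 gave 8.97. Siglecf, a receptor of eosinophils, had 57.5, 48.1 and 41.7 in shB libraries and 2.25, 4.02 and 1.92 in NTC libraries (15.8-fold), and passed the filter through shB alone (adjusted p 0.00267 with no filter). Arg1, another gene of alternative activation, had 403, 785 and 867 in shB libraries and 600, 1017 and 861 in NTC libraries, and the groups overlapped (adjusted p 0.535).

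Of 23 tested chemokine genes 18 rose, 11 without shB replicate 2 or 3. Of 11 tested chemokine receptor genes 10 rose, and 6 of these calls held with each library left out in turn. Among the 11, 3 passed the filter through shB alone. Cxcl16, the ligand of Cxcr6, had 1071, 1195 and 1311 normalized reads in shB libraries and 243, 248 and 335 in NTC libraries (4.36-fold, limma adjusted p 0.00177). Cxcl14, a chemokine of epithelial tissues, had 2656, 5261 and 6610 in shB libraries and 375, 699 and 416 in NTC libraries (9.45-fold, adjusted p 0.00272). The groups did not overlap in either. Ccl5, which attracts T cells, rose 15.3-fold (adjusted p 0.0105), and 7.88-fold without NTC replicate 1. The interferon-induced T cell attractants Cxcl9 and Cxcl10 rose 9.50-fold and 20.3-fold (adjusted p 0.0432 and 0.0294). Both calls were lost without shB replicate 2, shB replicate 3 or NTC replicate 2, and that of Cxcl9 also without shB replicate 1 (0.0509 to 0.105). Without NTC replicate 1 the folds were 4.21 and 7.49, and without NTC replicate 3 they were 17.5 and 40.5. Of 23 Toll-like receptor and innate sensor genes 19 rose. Tlr3, a sensor of double-stranded RNA, had 762, 621 and 803 in shB libraries and 36.1, 81.3 and 82.5 in NTC libraries (11.5-fold, adjusted p 0.00216), and the adaptor gene Myd88 rose 2.02-fold. Of 16 tested cytokine genes 10 rose, 4 without shB replicate 2 or 3, and 6 of the 16 passed the filter through shB alone. Csf1, the ligand of Csf1r, rose 7.03-fold (adjusted p 0.00555). Il15, which sustains NK cells and memory T cells, passed the filter through shB alone and rose 6.05-fold (adjusted p 0.00603 with no filter).

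**Figure D5:**
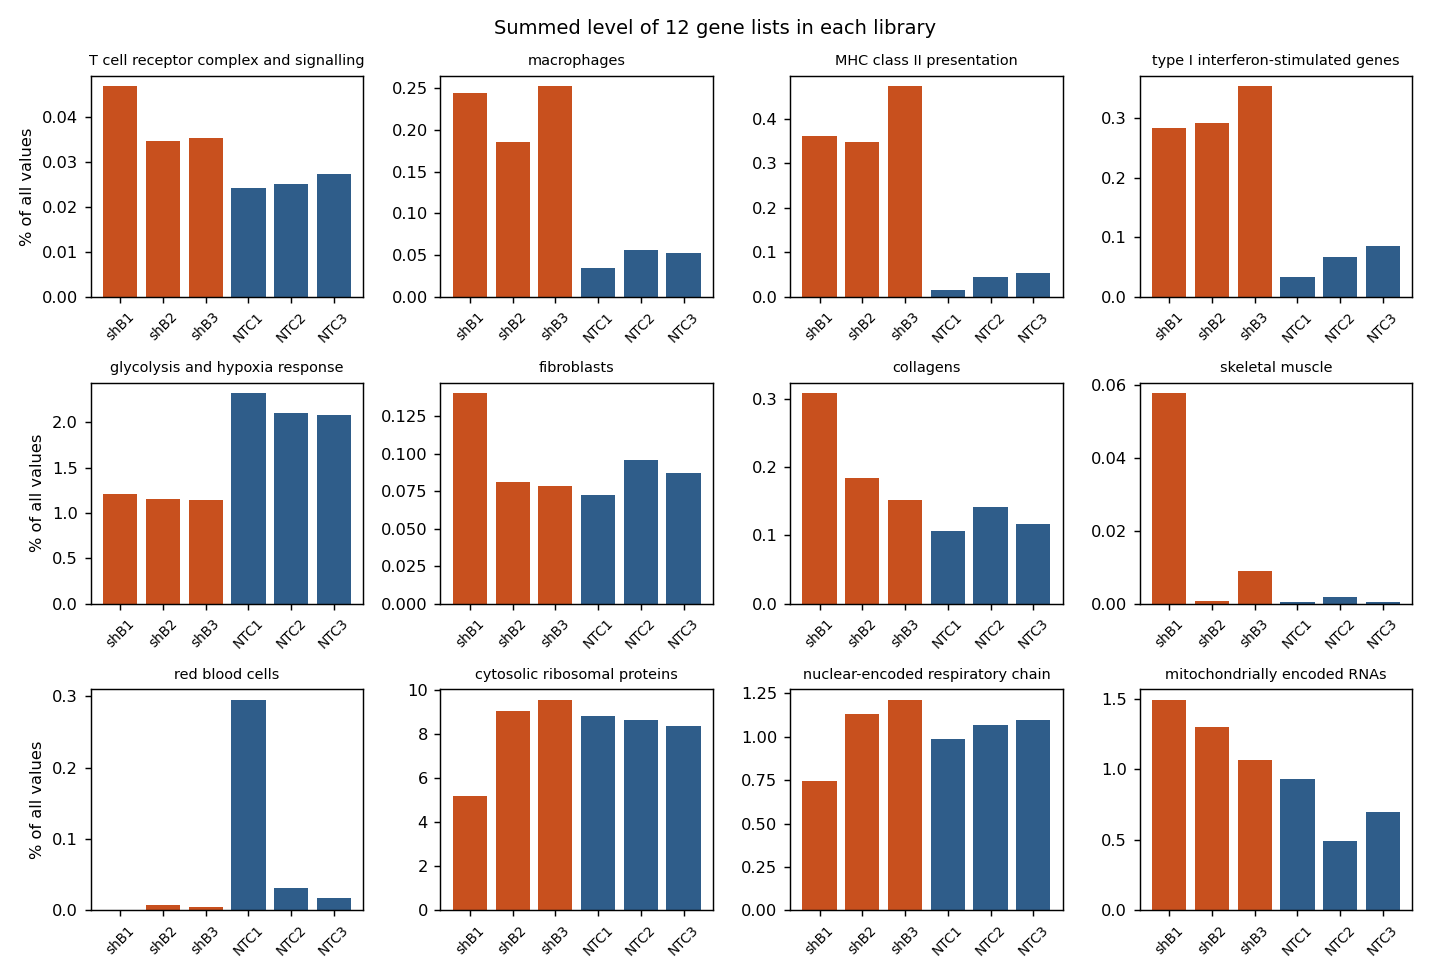
Summed level of 12 gene lists as a percent of all values (vertical axis, each panel with its own scale from 0) in the 3 shB libraries (orange, left) and the 3 NTC libraries (blue, right). Class II genes take 0.347% to 0.473% in shB libraries and 0.0149% to 0.0546% in NTC libraries, while muscle genes are highest in shB replicate 1 and red blood cell genes in NTC replicate 1.

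Glycolysis and hypoxia genes were low in shB tumours. Of 36 tested, 24 fell and 1, the carbonic anhydrase gene Car9, rose. Together they took 1.14% to 1.21% of all values in shB libraries and 2.08% to 2.32% in NTC libraries, and the median log2 change was -0.87. Slc2a1, the main glucose transporter, had 4062, 2924 and 3280 normalized reads in shB libraries and 16282, 10830 and 10367 in NTC libraries, a 3.61-fold fall (limma adjusted p 0.00272). Slc16a3, which exports lactate, had 2326, 2603 and 2942 in shB libraries and 9017, 7641 and 8025 in NTC libraries (3.14-fold fall, adjusted p 0.00177). For Slc16a3 no library of one group reached the range of the other. Pfkl, a phosphofructokinase, had 5098, 4738 and 4659 in shB libraries and 10097, 9818 and 10018 in NTC libraries (2.07-fold fall, adjusted p 0.00216). Gpi1, which acts before phosphofructokinase, fell by 0.59 on the log2 scale, and the later genes Aldoa, Tpi1, Gapdh, Pgk1, Pgam1, Eno1, Pkm and Ldha had log2 changes of -0.72 to -1.06. Gpi1 no longer passed without NTC replicate 2 (adjusted p 0.052).

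The same list holds hypoxia-induced genes outside glycolysis, of which some fell and some did not pass. Bnip3, a mitophagy receptor, had 1590, 1327 and 1396 normalized reads in shB libraries and 5825, 4112 and 3906 in NTC libraries (3.17-fold fall, limma adjusted p 0.00252). Ddit4, an inhibitor of mTOR signalling, fell 3.26-fold and Vegfa, the vascular growth factor, 2.35-fold (adjusted p 0.00216 and 0.00382). Ndufa4l2 and Hif1a are outside this list. Ndufa4l2, a hypoxia-induced relative of a respiratory chain subunit, is counted in the nuclear respiratory list. It had 192, 165 and 152 in shB libraries and 1210, 790 and 768 in NTC libraries, a 5.33-fold fall. Hif1a, whose protein is controlled by its stability, had 3030, 2324 and 2407 in shB libraries and 2172, 2401 and 2338 in NTC libraries, and the groups overlapped (adjusted p 0.442). Within the list, Ndrg1, Higd1a and P4ha1 did not pass (adjusted p 0.608, 0.142 and 0.113), with overlap between the groups for Ndrg1. Car9 went against the list with 76.6, 136 and 99.1 in shB libraries and 57.5, 48.2 and 41.3 in NTC libraries, and its 2.07-fold rise (adjusted p 0.0436) was lost without any library except shB replicate 1 (0.0643 to 0.158). Slc2a3, a second glucose transporter also outside the list, had 2049, 698 and 587 in shB libraries and 4755, 4512 and 4500 in NTC libraries (4.86-fold fall, adjusted p 0.00966).

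Fgf8 and some genes of MAPK output were low. Fgf8, a growth factor of embryonic limbs and midbrain, had 734, 756 and 786 normalized reads in shB libraries and 10712, 4960 and 4766 in NTC libraries, an 8.34-fold fall (limma adjusted p 0.00216). Fgfbp3, which binds such factors, had 1387, 1055 and 1011 in shB libraries and 8221, 6376 and 6032 in NTC libraries (5.98-fold fall, adjusted p 0.0017). In both genes the shB values were close together. Of 18 tested genes of MAPK output and feedback 8 fell and 1, the ephrin receptor gene Epha4, rose, and all 9 calls held with each library left out. Etv4, a transcription factor induced by the pathway, had 577, 495 and 604 in shB libraries and 1942, 1835 and 1761 in NTC libraries (3.31-fold fall, adjusted p 0.0017). Spry4, a feedback inhibitor, had 518, 496 and 490 in shB libraries and 1442, 1365 and 1332 in NTC libraries (2.75-fold fall, adjusted p 0.00177). Dusp6, the phosphatase that switches off ERK, fell 2.66-fold and Dusp4 2.39-fold. Relatives did not all pass, with Spry1 at 383, 574 and 498 in shB libraries and 545, 515 and 498 in NTC libraries and Etv5 at a log2 change of -0.35. Kit, a receptor tyrosine kinase listed here as a mast cell gene, went up instead, at 1979, 1872 and 2171 in shB libraries and 155, 272 and 362 in NTC libraries (8.06-fold, adjusted p 0.00216). Of 6 tested mast cell genes Kit and the protease gene Mcpt4 rose, Mcpt4 by 2.03-fold (adjusted p 0.0384), a call lost without shB replicate 2, shB replicate 3, NTC replicate 1 or NTC replicate 2 (0.0977 to 0.125). The proteases Cma1 and Tpsb2 did not pass, at log2 changes of 0.94 and 0.97 and adjusted p of 0.0562 and 0.058. Cma1 passed without shB replicate 1 (0.0136) and Tpsb2 without NTC replicate 3 (0.0212).

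Wnt target genes moved both ways. Wnt signals stabilise beta-catenin and keep intestinal stem cells dividing. Of 23 tested targets 6 rose and 7 fell, and 12 fell without shB replicate 1. Sox9, a transcription factor of intestinal progenitors, had 1791, 3234 and 2628 normalized reads in shB libraries and 113, 183 and 164 in NTC libraries (16.5-fold rise, limma adjusted p 0.0017). Myc, the growth regulator, had 1187, 2405 and 2837 in shB libraries and 391, 472 and 422 in NTC libraries (4.70-fold rise, adjusted p 0.00411). Ephb2, a receptor that positions crypt cells, had 604, 743 and 617 in shB libraries and 184, 193 and 176 in NTC libraries (3.54-fold rise, adjusted p 0.00178). These 3 genes were higher in every shB library than in any NTC library. T (brachyury), the mesoderm transcription factor, went the other way, with 8.71, 30.5 and 18 in shB libraries and 243, 289 and 555 in NTC libraries (19.5-fold fall, adjusted p 0.00294). Axin2, a feedback inhibitor of the pathway, had 13378, 10674 and 10280 in shB libraries and 19340, 17892 and 19451 in NTC libraries (1.66-fold fall, adjusted p 0.0102).

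Of 34 tested Wnt ligand, receptor and inhibitor genes 7 rose and 5 fell. Without shB replicate 1, 11 fell, and 3 fell without shB replicate 2, NTC replicate 2 or NTC replicate 3. One of the 7 is Fzd10os, an antisense transcript whose reads cannot be told from those of Fzd10, since a strand setting was not given in the sources used here. The calls of both were lost without shB replicate 2, shB replicate 3 or NTC replicate 3, that of Fzd10 also without shB replicate 1 and that of Fzd10os also without NTC replicate 1 or 2 (adjusted p up to 0.125 and 0.153). Dkk4, a secreted Wnt inhibitor, had 22.6, 0.982 and 7.88 normalized reads in shB libraries and 175, 151 and 174 in NTC libraries. Its 25.2-fold fall (limma adjusted p 0.0109) was 47.2-fold without shB replicate 1 and 11.9-fold without shB replicate 2. Dkk2, a related inhibitor, had 428, 247 and 388 in shB libraries and 1130, 2011 and 1317 in NTC libraries (4.17-fold fall, adjusted p 0.00385). Sfrp1, another secreted antagonist, rose, with 149, 63.8 and 95.7 in shB libraries and 3.38, 15.1 and 8.64 in NTC libraries (11.9-fold). Sfrp1 passed the filter through shB alone (adjusted p 0.00645 with no filter).

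Genes of the HoxB cluster, which patterns the body axis, were low in shB tumours. Of 29 tested HOX and PAX genes 9 fell, 2 rose and 18 did not pass, and the 9 were Pax7, Hoxa11 and the 7 genes Hoxb3 to Hoxb9. Hoxb6 had 1359, 845 and 864 normalized reads in shB libraries and 4371, 3037 and 2890 in NTC libraries (3.38-fold fall, limma adjusted p 0.00374). Hoxb7 had 477, 379 and 410 in shB libraries and 1000, 970 and 852 in NTC libraries (2.23-fold fall, adjusted p 0.00324). The HoxB falls lay between -1.16 and -2.24 on the log2 scale, whereas Hoxb13, at the far end of the cluster, had a log2 change of 0.37 and did not pass. Hoxa13, of the HoxA cluster, rose, with 322, 463 and 401 in shB libraries and 19.2, 72.3 and 50.9 in NTC libraries (9.35-fold, adjusted p 0.00465). The call of Hoxa11 was lost without NTC replicate 2 or 3 (0.0827 and 0.0651), and that of Hoxb3 without shB replicate 2 or any one NTC library (0.0516 to 0.0679), with a log2 change of -2.85 without shB replicate 1. Pax7, which marks muscle stem cells, had 3.48, 7.86 and 3.38 in shB libraries and 228, 97.4 and 126 in NTC libraries (27.9-fold fall), and passed the filter through NTC alone (adjusted p 0.00212 with no filter).

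Several of the largest falls lay outside the lists. Trpa1, an irritant-sensing ion channel, had 38.3, 34.4 and 46.2 normalized reads in shB libraries and 667, 784 and 732 in NTC libraries (18.2-fold fall, SE 0.20 on the log2 scale, limma adjusted p 0.000813). Brinp2, expressed mainly in the nervous system, had 5.22, 4.91 and 1.13 in shB libraries and 308, 175 and 176 in NTC libraries, a 57.4-fold fall that was 38.1-fold without shB replicate 3. Magel2, an imprinted gene of endosomal protein sorting, had 0.871, 7.86 and 2.25 in shB libraries and 107, 106 and 103 in NTC libraries, a 33.5-fold fall that was 22.1-fold without shB replicate 1 and 54.5-fold without shB replicate 2. Brinp2 and Magel2 passed the filter through NTC alone (adjusted p 0.00196 and 0.0033 with no filter). Smoc1, a matrix protein that modulates bone morphogenetic protein signals, had 57.5, 137 and 118 in shB libraries and 1407, 1140 and 998 in NTC libraries (11.9-fold fall, adjusted p 0.00198). Spock2, a matrix proteoglycan, fell 3.48-fold (adjusted p 0.00252). Rasl10b, a small GTPase, passed the filter through NTC alone and fell 14.6-fold (adjusted p 0.00275 with no filter). Adra2c, an adrenergic receptor, and Slc6a7, a proline transporter, fell 33.3-fold and 28.4-fold and passed the filter through NTC alone (adjusted p 0.018 and 0.0267 with no filter). The Adra2c call was lost without NTC replicate 1 or 2 and that of Slc6a7 without any one NTC library (adjusted p 0.0582 to 0.0961). Their folds were 79.2 and 48.8 without shB replicate 2 and 14.8 and 9.84 without shB replicate 3, and that of Slc6a7 was 47.8 without shB replicate 1.

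A few ion exchanger and channel genes were among the genes that rose most, while others of these lists fell or did not pass. Slc9a4 and Slc9a2, sodium-proton exchangers of the gut and stomach, had almost no reads in NTC tumours. Slc9a4 had 87.1, 278 and 191 normalized reads in shB libraries and 0, 1.00 and 3.84 in NTC libraries, and Slc9a2 had 83.6, 284 and 267 in shB libraries and 0, 4.02 and 1.92 in NTC libraries. In both, shB replicate 1 was the lowest of its group. Both passed the filter through shB alone (limma adjusted p 0.00297 and 0.00335 with no filter). Their log2 changes were 6.82 and 6.72, 6.03 and 5.81 without NTC replicate 1, 7.59 for Slc9a4 without NTC replicate 3 and 7.40 for Slc9a2 without NTC replicate 2. Slc9a5, a relative expressed in the brain, fell 2.85-fold, and Slc9a3r1 fell 1.58-fold (adjusted p 0.0158). Of the 10 tested genes of the sodium-proton exchanger list only these 4 were called. Of 27 tested potassium channel genes 9 rose and 4 fell, with 2 falling without shB replicate 2, NTC replicate 1 or NTC replicate 2. Kcnc1, a fast channel of neurons, had 157, 90.4 and 151 in shB libraries and 1.13, 1.00 and 2.88 in NTC libraries (log2 change 6.00, SE 0.51), and passed the filter through shB alone (adjusted p 0.00148 with no filter). Kcnn4, a calcium-activated channel of lymphocytes and epithelia, rose 5.74-fold (adjusted p 0.00358). C1qtnf3, a secreted relative of complement C1q, had 313, 306 and 181 in shB libraries and 0, 3.01 and 5.76 in NTC libraries, and passed the filter through shB alone (adjusted p 0.00327 with no filter). Its log2 change of 6.87 was 5.79 without NTC replicate 1 and 7.61 without NTC replicate 3.

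H60c, a ligand of the NK cell receptor NKG2D, had 238, 339 and 390 normalized reads in shB libraries and 1.13, 15.1 and 12.5 in NTC libraries, a 45.8-fold rise. It passed the filter through shB alone (limma adjusted p 0.00474 with no filter), and the rise was 22.2-fold without NTC replicate 1 and 68.8-fold without NTC replicate 2. The receptor gene Klrk1 had 168, 102 and 178 in shB libraries and 1.13, 18.1 and 30.7 in NTC libraries. Its 14.8-fold rise (adjusted p 0.0323) was lost without shB replicate 2, shB replicate 3 or NTC replicate 2 (0.0538 to 0.0931), and was 6.05-fold without NTC replicate 1 and 26.5-fold without NTC replicate 3. Pls1, an actin bundler of intestinal microvilli, had 51.4, 2081 and 1672 in shB libraries and 4.51, 19.1 and 8.64 in NTC libraries. It passed the filter through shB alone (adjusted p 0.0198 with no filter). Its 58.7-fold rise became 194-fold without shB replicate 1, and the call was lost without shB replicate 2 or 3 or NTC replicate 1 or 3 (0.0586 to 0.0757), with folds of 30.6 and 34.1 without shB replicate 2 and 3.

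Epithelial genes differed between the shB libraries. Of 19 tested 5 rose and 2 fell. Without shB replicate 1, 12 rose and 4 fell, and 2 or 3 rose and 1 fell without any other library. Cdh1, E-cadherin, had 21503, 21868 and 21748 normalized reads in shB libraries and 12611, 13926 and 13779 in NTC libraries (1.62-fold rise, limma adjusted p 0.00635). Krt7, a keratin of ductal epithelia, had 2128, 6275 and 7268 in shB libraries and 810, 1128 and 784 in NTC libraries (5.13-fold rise, adjusted p 0.0096). Cdx2, which sets intestinal identity, had 129, 58.9 and 81.1 in shB libraries and 550, 309 and 245 in NTC libraries (4.05-fold fall, adjusted p 0.0105). Cdx2 is also a marker of tumour epithelium, and the markers Epcam and Krt8 overlapped between the groups. Epcam had 5085, 8627 and 8951 in shB libraries and 10895, 10023 and 8732 in NTC libraries. Krt8 had 4942, 8361 and 9600 in shB libraries and 7590, 5741 and 4608 in NTC libraries. For both, shB replicate 1, which held the muscle signal, was the lowest shB library, and the part of that signal was not tested.

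Stromal genes rose in part. Of 17 fibroblast genes 8 rose and 2 fell, and 5 fell without shB replicate 1. Dcn, a matrix proteoglycan, had 833, 316 and 316 normalized reads in shB libraries and 42.8, 81.3 and 24.9 in NTC libraries (9.75-fold rise, limma adjusted p 0.00617). Postn, periostin, had 2552, 2123 and 1678 in shB libraries and 382, 710 and 423 in NTC libraries (4.29-fold rise, adjusted p 0.00324). Pdgfra, the defining fibroblast receptor, overlapped, at 1775, 877 and 901 in shB libraries and 1387, 1321 and 1168 in NTC libraries. Of 30 tested collagen genes 9 rose and 2 fell, with 5 rising without shB replicate 2 or NTC replicate 1, 5 falling without shB replicate 1 and 1 falling without any other library. Shares of all values were 0.0781% to 0.140% in shB libraries and 0.0727% to 0.0956% in NTC libraries for fibroblast genes, highest in shB replicate 1. Mmp15, a membrane metalloproteinase, had 3292, 4296 and 4379 in shB libraries and 261, 581 and 532 in NTC libraries (9.14-fold rise, adjusted p 0.00216). Tgfb2, a growth factor of the TGF-beta family, had 1658, 1792 and 1599 in shB libraries and 3916, 4165 and 3605 in NTC libraries (2.31-fold fall, adjusted p 0.00198), while Tgfb1 rose by 0.92 and the target gene Tgfbi by 2.13 on the log2 scale. The Tgfb1 call was lost without shB replicate 3 (adjusted p 0.0751). Of 16 tested endothelial genes 2 rose, read against 22.2% called among all genes tested. Eng rose 1.98-fold and Vwf 1.43-fold (adjusted p 0.0115 and 0.0222), and 1 of the 2 calls held with each library left out. Plvap, Esam and Tie1 did not pass, though every shB library lay above every NTC library. The other tested members overlapped, with Pecam1 at 1057, 794 and 1005 in shB libraries and 860, 700 and 619 in NTC libraries and Kdr, the VEGF receptor, at 444, 213 and 256 in shB libraries and 240, 317 and 321 in NTC libraries.

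Mitochondrially encoded RNAs were high in shB tumours, while nuclear genes of the same respiratory chain were not. Of 18 tested mitochondrial RNAs 12 rose, 5 without shB replicate 2, and of 74 tested nuclear respiratory genes none rose and 1, Ndufa4l2, fell. Without shB replicate 1, 31 nuclear respiratory genes rose and 1 fell. The mitochondrial list took 1.07% to 1.49% of all values in shB libraries and 0.491% to 0.931% in NTC libraries. mt-Nd6, the complex I subunit read from the light strand, had 4065, 6558 and 4961 normalized reads in shB libraries and 1564, 799 and 1675 in NTC libraries (3.98-fold rise, limma adjusted p 0.00546). mt-Nd1, another complex I subunit, had 32658, 38279 and 30394 in shB libraries and 18371, 10415 and 15661 in NTC libraries (2.33-fold rise, adjusted p 0.00897). mt-Co1, of complex IV, had a log2 change of 0.57 and did not pass. In the fit on all 9 libraries none of the 18 passed.

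Cell cycle genes were close between the groups. Of 31 tested 2 fell and none rose, the 2 being Mcm2, part of the replicative helicase, and Ccnb1, a mitotic cyclin. Mcm2 had 6483, 4598 and 4942 normalized reads in shB libraries and 7147, 7905 and 8022 in NTC libraries, a 1.45-fold fall (limma adjusted p 0.0403). Both calls were lost without any library except shB replicate 1 (0.0808 to 0.162). Without shB replicate 1, 17 cell cycle genes fell and 2 rose. Mki67, the proliferation marker, had 8193, 4718 and 4291 in shB libraries and 5900, 5777 and 6340 in NTC libraries, with shB replicate 1 above and the other shB libraries below the NTC range. Of 75 ribosomal protein genes 1 fell with all libraries, and 13 rose and 2 fell without shB replicate 1.

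The second Gad1 shRNA, shA, has 3 libraries of its own, and both shRNAs are set against the same NTC libraries. None of the 14177 genes differed between shB and shA in limma, with a smallest adjusted p of 0.674 and 997 genes at an unadjusted p under 0.05. With edgeR the count was also 0, with a smallest adjusted p of 0.654 and 1041 genes at an unadjusted p under 0.05. The median SE of the log2 difference was 0.22, so this does not show that the shRNAs act alike. One shA library stood apart in B cell genes, with Ms4a1 at 328 normalized reads in shA replicate 1 and 9.35 and 9.02 in the other shA libraries, and its part in the shB versus shA comparison was not tested. For Gad1 the log2 difference, shB minus shA, was 0.16 (SE 0.47).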

How the data were processed

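RNA came from whole MC38 tumours, prepared with a NEBNext Ultra kit and sequenced on an Illumina NovaSeq, per the labels. The submitters' processing notes name Cuffdiff 2.2.1 and the build mm9 without stating their role. Aligner, read counter, strand and gene models were not given in the sources used here. Values of overlapping, antisense and near-identical genes are therefore uncertain. The authors deposited a signal, read counts scaled by a single size factor for each library. All nonzero values (100%) were whole multiples of the value of 1 read within a tolerance of 0.001. The 6 libraries held 18373748 to 21968880 reads.

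The plan had left the unit open between counts and scaled values. Because scaled values were found, log2(value + 0.5) was fitted in limma 3.58.1 (R 4.3.3) with an intensity trend, and p-values were adjusted by Benjamini-Hochberg over 14177 genes that reached 20 normalized reads in at least 3 libraries. The gene 5730596B20Rik lay just inside that filter, with a third-highest value of 20.0, and Vdac3-ps1 just outside, with 19.6. A fit on all 9 libraries compared shB with shA. Alternatives included the recovered counts in edgeR 4.0.16 and in DESeq2 1.42.0, other pseudocounts, filters and scalings, a replicate block and each library left out.

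Named genes were Gad1, then 12 per direction with the largest change among those that passed, averaged 40 or more and did not overlap, then 6 per direction that averaged 2000 or more. The defining cell type markers and, per list, up to 4 genes of smallest p were added. The rankings skipped predicted genes, receptor segments, small RNAs and pseudogenes. Other members are examples chosen after their values were seen. Some list members are not reported here by name. Members and lists were chosen with earlier results of these data known, and list counts are descriptions with no test. Libraries within a group differed beyond counting error, with chi-square values per degree of freedom of 9.25 to 100.6 for shB and 7.39 to 26.4 for NTC. In simulated counts of 13974 genes for shB versus NTC, 99 genes were changed 4-fold and 99 were changed 2-fold. Of these, 88.9% and 36.4% were called, along with 7 unchanged genes.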

Additional observations from a re-analysis of the deposited data

How the results depend on the processing

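Of the 3153 genes that changed with all 6 libraries (2024 rose and 1129 fell, 64.2% of them rising), the other pseudocounts, filters, scalings and prior settings, edgeR (2105 and 1054), DESeq2 (2498 and 1494) and the fit on all 9 libraries (1912 and 1030) kept each count within 1.5 times, and none called a gene in the opposite direction. Library weights gave 9682 genes, 4803 rising and 4879 falling (49.6% rising), with a warning from limma on the tolerance of its weights. A test against a 1.5-fold threshold left 1013 genes, 855 rising and 158 falling (84.4% rising). Leaving out 1 library gave 1646 to 6440 changed genes, 1171 to 3277 rising and 475 to 3163 falling, and 50.9% to 75.9% of them rose. Without replicate 1 of both groups 7224 genes changed, 3723 rising and 3501 falling (51.5% rising). No shared deviation of same-numbered shB and NTC libraries was seen, with correlations of -0.10, -0.17 and -0.06. Whether same-numbered tumours were handled together was not tested. With a replicate block 1605 genes rose and 656 fell. The fall of Gad1 passed under every alternative run. Under library weights 3 muscle genes reversed, Mylpf at a log2 change of -0.033, Tnnt3 at -0.69 and Myh4 at -2.71. The causes of these changes were not tested. With 3 libraries per group, changes near 2-fold were often not called in the simulated data. Those data held 99 genes changed at each fold, far fewer than the 3153 called here. The adjusted threshold was therefore harder to reach in them, and their shares do not carry over to these data.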

Other observations

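The lists of this paragraph are read against 22.2% called among all genes tested, and give no result about the groups. The NRF2 and cholesterol lists lay under that share, and the glutamine and glutamate list lay above it. Of 14 tested glutamine and glutamate genes 2 rose and 2 fell, and none of the 4 calls held in all leave-one-out fits. Slc7a11, which exchanges cystine for glutamate, had 1787, 714 and 824 normalized reads in shB libraries and 2237, 3417 and 3104 in NTC libraries (2.82-fold fall, limma adjusted p 0.0203), and the call was lost without shB replicate 2 or 3 or NTC replicate 2 or 3 (0.0662 to 0.0716). Slc1a3, a glutamate transporter, had 1387, 1111 and 1087 in shB libraries and 259, 615 and 521 in NTC libraries (2.72-fold rise, adjusted p 0.0165), lost without shB replicate 2 (0.0528). Neither gene overlapped between the groups. Of 22 NRF2 target genes 3 fell and 1 rose, with 5 rising without shB replicate 1 and 1 falling without shB replicate 2, shB replicate 3, NTC replicate 2 or NTC replicate 3. Hmox1, heme oxygenase, had 1591, 1559 and 1932 in shB libraries and 3851, 4535 and 4920 in NTC libraries (2.62-fold fall, adjusted p 0.00235), and Gpx2, an intestinal glutathione peroxidase, rose 2.67-fold (adjusted p 0.0105). Of 22 cholesterol synthesis genes 1 rose and 1 fell, and neither call held in all leave-one-out fits.

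Of 8 Schlafen genes, interferon-induced regulators of translation and proliferation, 4 rose. Slfn5 had 1619, 1377 and 1823 normalized reads in shB libraries and 158, 255 and 275 in NTC libraries (7.15-fold, limma adjusted p 0.00178), and Slfn2 had 771, 1012 and 1183 in shB libraries and 59.7, 132 and 141 in NTC libraries (9.34-fold, adjusted p 0.00252). No shB library reached down to the NTC range. Of 21 immediate early genes 5 rose, and 14 did without shB replicate 1. This count and that of the heat shock genes below lay near the 22.2% called among all genes tested. They give no result about the groups. Nr4a3, an orphan nuclear receptor, had 143, 173 and 189 in shB libraries and 6.76, 20.1 and 15.4 in NTC libraries (12.6-fold, adjusted p 0.00294). Of 19 heat shock genes 5 rose, with 3 without shB replicate 2, NTC replicate 1 or NTC replicate 3 and 2 without NTC replicate 2. Cryab, a small heat shock protein also abundant in muscle, had 193, 98.2 and 222 in shB libraries and 18, 42.2 and 22.1 in NTC libraries (6.20-fold, adjusted p 0.00711). Lor, the keratinocyte gene loricrin, rose 2.82-fold (adjusted p 0.00789), while Krt10 had 23.5, 36.3 and 22.5 in shB libraries and 56.3, 31.1 and 49.9 in NTC libraries and overlapped.

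All 5 listed red blood cell genes had lower values in each shB library than in any NTC library, as did 20.8% of all genes tested. Hbb-bt and Hbb-bs fell. The Hbb-bt log2 change of -4.30 lay between -3.01 and -5.14 with 1 library left out, and its call was lost without shB replicate 2, shB replicate 3, NTC replicate 1 or NTC replicate 2 (adjusted p 0.0544 to 0.0662). Hbb-bs, a beta globin, had 92.3, 810 and 638 normalized reads in shB libraries and 35335, 3815 and 2009 in NTC libraries. Its log2 change of -4.15 (limma adjusted p 0.0419) was -2.93 without NTC replicate 1 (0.0918), -3.17 without shB replicate 1 and -5.00 without NTC replicate 3, and the call was also lost without shB replicate 2 or 3 or NTC replicate 2 (0.068 to 0.0779). Acta1, a muscle actin, had 3445, 0 and 537 in shB libraries and 0, 90.3 and 0 in NTC libraries and did not pass (adjusted p 0.332). Xist, the X-inactivation RNA, had 1399, 312 and 349 in shB libraries and 104, 193 and 246 in NTC libraries and did not pass (adjusted p 0.0888), with shB replicate 1 again far from its group.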
